A study of Mus musculus with 4 samples.

Results

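RNA of genes for STAT factors, which carry cytokine signals, and for the SOCS proteins that shut them off was measured in DC2.4 cells treated with ginsenoside Rb1. Protein, phosphorylation and signalling itself were not part of these data. The 9 genes described are Stat2, Stat3, Stat5a and Stat6, the kinase gene Jak2, and the inhibitor genes Socs1, Socs2, Socs3 and Cish. They were taken by gene symbol from a count table of 54532 genes, and all 9 were among the 13518 genes with enough counts to be tested. DC2.4 is an immortalised line of mouse dendritic cells, and Rb1 here is a saponin of ginseng, not the retinoblastoma gene. One group of 2 libraries received vehicle and the other group of 2 libraries received Rb1 at 10 uM, both for 24 h before RNA was collected. All 4 libraries come from the same cell line.

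In this pathway a cytokine receptor brings Janus kinases together, the kinases phosphorylate the receptor, and STAT proteins that dock there are phosphorylated, pair and move to the nucleus. STAT2 works in the complex ISGF3, with IRF9, downstream of type I interferon, STAT3 answers interleukin-6 and interleukin-10, STAT5 answers GM-CSF and related cytokines, and STAT6 answers interleukin-4 and interleukin-13. SOCS genes and Cish are themselves switched on by STATs, and their proteins then block the kinase or the receptor and can mark them for degradation, which closes a feedback loop. In dendritic cells GM-CSF and STAT5 are known for supporting development and survival, and SOCS1 for restraining responses to interferon and microbial ligands.

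The libraries held between 17829784 and 18641021 counts. Of 14 dendritic cell markers 8 were tested. The FPKM of all 14 summed to 788 and 799.7 with vehicle and 414 and 395 with Rb1, most of it from Cd74. Of the 8 tested markers 6 were lower and 2 higher, the latter Zbtb46 (37 and 31 against 127 and 109 counts) and Sirpa (2031 and 2185 against 3065 and 2834 counts). Flt3, Batf3, Clec9a and the class II gene H2-Ab1 had between 0 and 15 counts in every library. Of 5 macrophage markers 4 were tested and all 4 were lower, among them Adgre1 with between 5438 and 8236 counts, while Mertk had at most 1 count in any library. The list had a summed FPKM of 254 and 272 against 145 and 143. Lymphocyte and epithelial markers summed to at most 0.162 and 0.0259 FPKM in any library, with 3 markers of each list at 0 in all 4. Fibroblast markers summed to 1.20 and 1.24 FPKM with vehicle and 0.122 and 0.0447 with Rb1, mostly Dcn. The part of these marker shifts in the results below was not tested. In bulk RNA, fewer cells of a type and less RNA per cell cannot be told apart.

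With Rb1 all 4 inhibitor genes fell, Stat2 and Stat6 fell, Stat5a rose, and Stat3 and Jak2 did not pass the test. Socs1 fell most, to 10.6% of its vehicle level, and Stat5a rose 2.08-fold. A gene is called here at an adjusted p under 0.05 in edgeR's quasi-likelihood test, adjusted over all 13518 genes. By that rule 1 of the 9 members was higher, 6 were lower and 2 were not called, so 77.8% of them were called. The change in these libraries was broad: 72% of all genes tested were called, 35.7% as higher and 36.3% as lower, so the members' share was near the background. The groups did not overlap in 8 of the 9 members, against 86.3% of all genes tested. The median log2 fold change was -0.85 over the members and -0.01 over all genes tested.

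**Figure D1:**
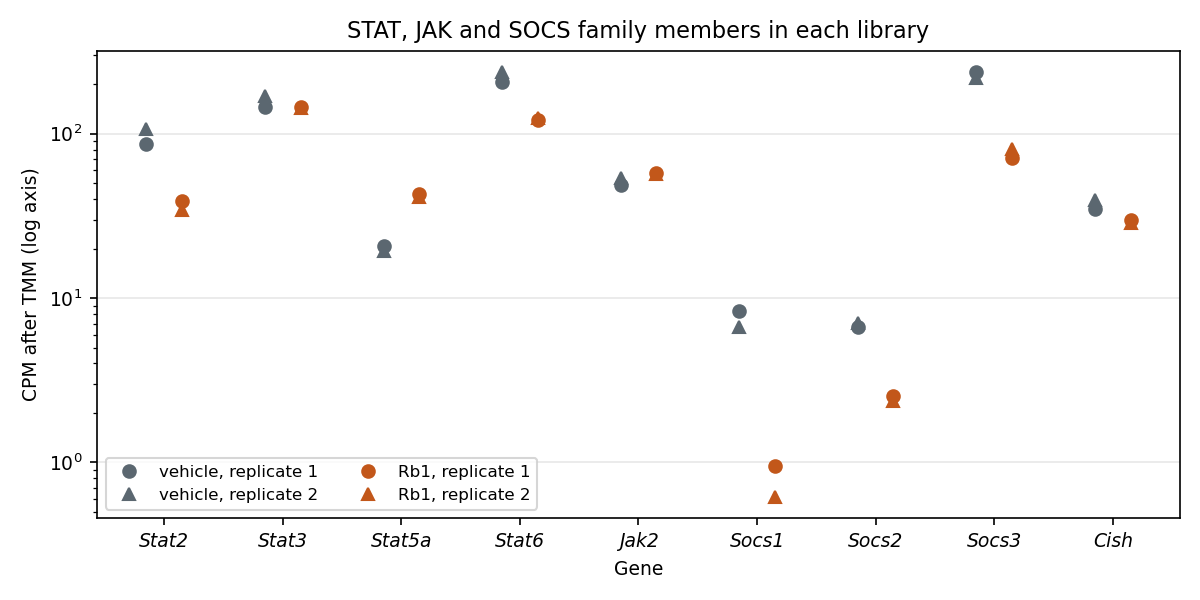
Expression of the 9 genes in each of the 4 libraries, in CPM on a log axis, with 1 point per library (grey for vehicle, orange for Rb1; the point shape gives the replicate). Socs1 has the widest gap between groups, Stat5a alone has both Rb1 libraries above both vehicle libraries by a wide margin, and for Stat3 the groups overlap.

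Short promoter stretches of members that fell are shown first, because they carry STAT or interferon motifs close to the start of the gene. RefSeq promoters (250 bases before to 50 after a gene's start, GRCm38.p6) were found for 8 members, in 9 windows. They were searched for the STAT motif TTCNNNGAA, for TTCNNNNGAA, whose longer spacer STAT6 prefers, and on both strands for the interferon response motif GAAANNGAAA. Capitals mark the matches, and each sequence reads 5′ to 3′ along the gene's own strand.

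Cish (chr9:107296409-107296708, plus strand): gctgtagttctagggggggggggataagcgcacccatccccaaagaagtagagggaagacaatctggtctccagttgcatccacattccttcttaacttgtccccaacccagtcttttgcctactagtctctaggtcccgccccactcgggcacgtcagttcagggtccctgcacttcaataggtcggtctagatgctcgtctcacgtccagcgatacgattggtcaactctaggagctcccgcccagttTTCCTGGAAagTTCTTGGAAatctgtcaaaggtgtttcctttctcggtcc

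Socs1 (chr16:10785487-10785786, minus strand): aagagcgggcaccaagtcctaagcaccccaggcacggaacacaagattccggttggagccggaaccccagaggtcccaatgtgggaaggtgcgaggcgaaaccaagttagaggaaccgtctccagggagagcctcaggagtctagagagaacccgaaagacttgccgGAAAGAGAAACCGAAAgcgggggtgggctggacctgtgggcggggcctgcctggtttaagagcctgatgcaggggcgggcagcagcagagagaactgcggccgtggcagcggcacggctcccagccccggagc

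Socs3 (chr11:117969497-117969535, minus strand): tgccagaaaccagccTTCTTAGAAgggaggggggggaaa

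Stat2 (chr10:128270261-128270312, plus strand): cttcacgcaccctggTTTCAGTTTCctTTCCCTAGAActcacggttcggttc

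Cish had a pair of STAT motifs, TTCCTGGAA and TTCTTGGAA, whose first bases lie at positions 1 and 12, counted from 1 at the gene start in RefSeq. Socs3 had the single STAT motif TTCTTAGAA, with its first base at position -154, where negative positions lie before the RefSeq start. By the gene coordinates of the count table, given below, the matches of Cish and Socs3 lie inside the gene. In Socs1 a pair of interferon motifs, GAAAGAGAAA and GAAACCGAAA, began at positions -83 and -77 and share 4 bases. Stat2 had the interferon motif on the opposite strand, at position -222, and TTCCCTAGAA at position -210. No match to these letters was found in the windows of Stat3, Stat5a, Stat6 and Jak2. Among all 32851 promoter windows of the same length, 8.30% held TTCNNNGAA, 6.95% held TTCNNNNGAA and 3.44% held GAAANNGAAA. A match is a stretch of letters, and binding was not measured.

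Socs1 (ENSMUSG00000038037, chr16:10782240-10785536, minus strand) encodes a protein that blocks Janus kinases directly through its kinase inhibitory region. It had 139 and 112 counts in vehicle replicates 1 and 2 and 19 and 12 counts in the Rb1 replicates. Coordinates of genes are on GRCm38. That is 8.32 and 6.66 CPM (counts relative to TMM-scaled library size) with vehicle and 0.949 and 0.619 CPM with Rb1. Both Rb1 libraries lay far below both vehicle libraries, and still above the 0.150 to 0.180 CPM to which 3 counts correspond. The level fell from 7.49 ± 1.17 to 0.784 ± 0.234 CPM (SD, n = 2 per group; log2 fold change -3.24, SE 0.28; edgeR adjusted p = 8.9e-07). Of all genes tested, 3.27% fell as far or further. Within replicate 1 and within replicate 2, which the labels enter as batches, the log2 difference was -2.99 and -3.22. On the log2(FPKM + 1) scale, which compresses low values, the fall was 1.48.

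Socs3 (ENSMUSG00000053113, chr11:117966079-117970047, minus strand), whose protein binds gp130 and related receptors and is the main brake on interleukin-6 signalling, was the most abundant inhibitor among the members. It stood at 238 and 218 CPM in the vehicle libraries and at 71.3 and 80.3 CPM in the Rb1 libraries, with no overlap. The fall was 3.003-fold (log2 fold change -1.59, SE 0.08; edgeR adjusted p = 1.8e-08), and 9.20% of genes tested fell as far or further. The within-replicate differences were -1.73 and -1.44. Socs3 had the smallest p of the 9 members.

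Socs2 (ENSMUSG00000020027, chr10:95385362-95417180, minus strand), the feedback inhibitor of growth hormone and STAT5 signalling, was thinly counted. Vehicle libraries held 112 and 118 counts of it and Rb1 libraries held 51 and 46. Its level was 6.70 and 7.02 CPM with vehicle and 2.55 and 2.37 CPM with Rb1. The replicates of each group lay close together and the groups apart, a fall of 2.78-fold (log2 fold change -1.48, SE 0.20; edgeR adjusted p = 3.8e-05). It was -1.36 within replicate 1 and -1.52 within replicate 2. On the log2(FPKM + 1) scale the same fall was only 0.45, since its FPKM was under 1 in all 4 libraries.

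Cish (ENSMUSG00000032578, chr9:107296026-107302784, plus strand) encodes CIS, the founding member of the family and a classical STAT5 target. It was at 34.9 and 39.6 CPM with vehicle and at 30.0 and 28.7 CPM with Rb1. The groups did not overlap, but the step between them was small, 1.27-fold (log2 fold change -0.34, SE 0.10; edgeR adjusted p = 0.0077). Within replicate 1 it was -0.22 and within replicate 2 it was -0.46. Without Rb1 replicate 2, which leaves 1 Rb1 library, the value was -0.31. The call was lost with DESeq2 (adjusted p = 0.051) and with scaling by library totals (log2 fold change -0.10, adjusted p = 0.426). With the trend on gene length removed the value was -0.66 (adjusted p = 7.9e-06), so the size of the change in Cish depends on the scaling. The gene overlaps Gm17040 by 1167 bases on the opposite strand, which had at most 17 counts in any library.

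**Figure D2:**
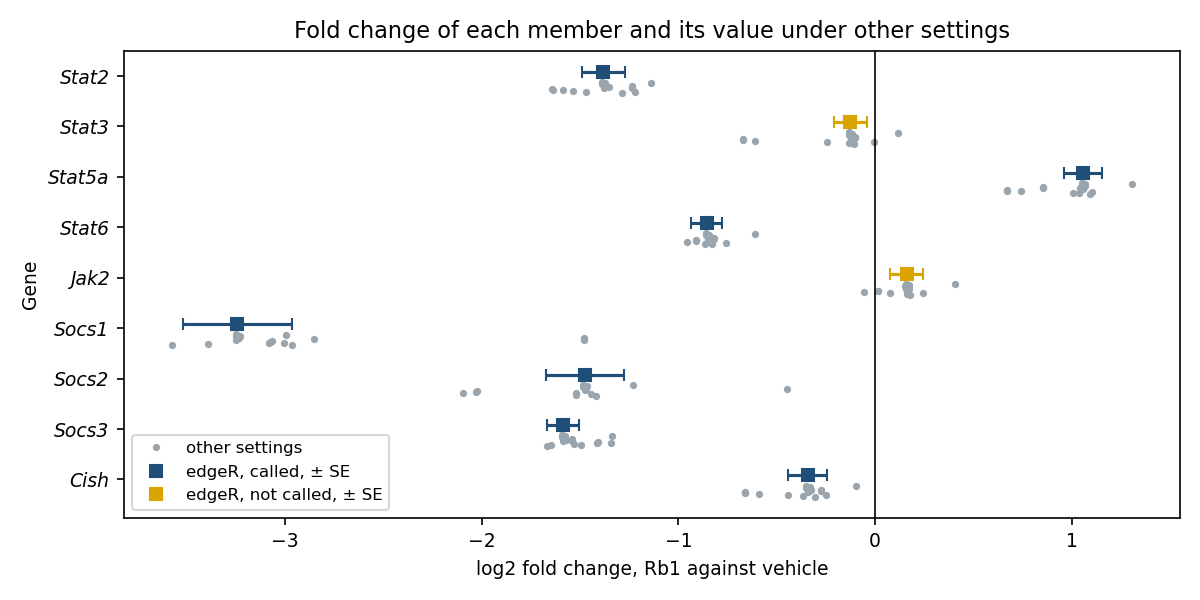
Log2 fold change of each member (horizontal axis, Rb1 against vehicle; squares with bars for ± SE, n = 2 per group) and its value under up to 17 other settings (grey points). Socs1, Socs2, Socs3, Stat2 and Stat6 stay below 0 and Stat5a above 0 in every setting run, while Stat3 and Jak2 have points on both sides of 0.

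Among the transcription factors Stat2 (ENSMUSG00000040033, chr10:128270559-128292849, plus strand) changed most. It stood at 86.0 and 106 CPM with vehicle and 39.2 and 34.5 CPM with Rb1. Vehicle replicate 2 was the highest library and Rb1 replicate 2 the lowest, and the groups did not overlap. The fall was 2.60-fold (log2 fold change -1.38, SE 0.11; edgeR adjusted p = 5.4e-07), with -1.13 within replicate 1 and -1.62 within replicate 2.

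Stat6 (ENSMUSG00000002147, chr10:127642986-127660957, plus strand), the factor of interleukin-4 signalling, was the most abundant STAT. It stood at 208 and 237 CPM with vehicle and 121 and 124 CPM with Rb1, so that both Rb1 libraries were well under both vehicle libraries. The fall was 1.81-fold (log2 fold change -0.85, SE 0.08; edgeR adjusted p = 1.7e-06), with -0.78 within replicate 1 and -0.93 within replicate 2, and 19.98% of genes tested fell as far or further. Its 3′ end overlaps Nab2 by 40 bases on the opposite strand, a gene with 198 to 285 counts per library against 2413 to 3976 for Stat6.

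Stat5a (ENSMUSG00000004043, chr11:100859351-100885169, plus strand) went the other way. It stood at 20.8 and 19.4 CPM with vehicle and at 42.7 and 41.0 CPM with Rb1, with little spread in either group. The rise was 2.08-fold (log2 fold change 1.06, SE 0.10; edgeR adjusted p = 1.5e-06), it was 1.03 within replicate 1 and 1.07 within replicate 2, and 13.3% of genes tested rose as far or further. With the length trend removed it was smaller, 0.67 (adjusted p = 1.5e-05). Its near-identical neighbour Stat5b, 8626 bases away on chromosome 11, rose from 33.2 ± 1.03 to 48.5 ± 0.341 CPM (log2 fold change 0.55, SE 0.08; edgeR adjusted p = 1.2e-04). Reads could have been split between these copies, so their single values are uncertain.

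Stat3 (ENSMUSG00000004040, chr11:100885098-100939540, minus strand), the factor of interleukin-6 and interleukin-10 signalling, was at 146 and 170.4 CPM with vehicle and at 146 and 144 CPM with Rb1. The Rb1 libraries lay at the level of vehicle replicate 1, and vehicle replicate 2 stood above the other three. No difference was called (log2 fold change -0.13, SE 0.08; edgeR adjusted p = 0.189). Within replicate 1 the difference was 0.00 and within replicate 2 it was -0.25. The value was -0.24 without vehicle replicate 1 and -0.008 without vehicle replicate 2, fits that leave 1 vehicle library. With library totals the sign turned (0.12, adjusted p = 0.275). Gene models over 5 kb took 27.9% and 30.4% of the counts in vehicle libraries against 40.5% and 40.1% in Rb1 libraries, and the Stat3 model has 9527 bases. With the length trend removed Stat3 was called lower (-0.67, adjusted p = 1.7e-07). Stat3 and Stat5a lie tail to tail on chromosome 11 and share 72 bases on opposite strands, and no source used here says whether counting used strand.

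Jak2 (ENSMUSG00000024789, chr19:29251828-29313080, plus strand), the kinase that serves the receptors of GM-CSF, erythropoietin, growth hormone and interferon gamma, stood at 48.5 and 54.1 CPM with vehicle and 57.7 and 57.1 CPM with Rb1. Both Rb1 libraries were above both vehicle libraries by a small margin, and the gene was not called (log2 fold change 0.16, SE 0.09; edgeR adjusted p = 0.113). It was called higher with library totals (0.40, adjusted p = 0.0015). The value was 0.24 without vehicle replicate 2 and 0.074 without vehicle replicate 1, fits that leave 1 vehicle library. With the length trend removed the value was 0.014, and with the GC trend removed as well it was -0.059. Within replicate 1 the difference was 0.25 and within replicate 2 it was 0.076.

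Scaling bears on these directions. With library totals in place of TMM, the middle gene of all those tested had a log2 fold change of 0.23 in place of -0.01. The share of calls that were higher went from 49.6% to 62.6%. On that scale 2 members were called higher (Stat5a and Jak2) and 5 lower (Stat2, Stat6, Socs1, Socs2 and Socs3).

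Levels were compared between genes on the authors' deposited FPKM, which are per kb of gene model. With vehicle the order was Socs3 (78.0 ± 4.37 FPKM), Stat6 (50.04 ± 4.84), Stat3 (16.5 ± 1.90), Stat2 (16.1 ± 2.47), Jak2 (10.1 ± 0.836), Cish (5.75 ± 0.548), Stat5a (2.79 ± 0.125), Socs1 (2.55 ± 0.385) and Socs2 (0.714 ± 0.0273). The libraries of Stat3 and Stat2 overlapped, as did those of Stat5a and Socs1, and every other pair of neighbours was apart. With Rb1 the order was Stat6 (27.9 ± 0.490 FPKM), Socs3 (26.2 ± 2.18), Stat3 (15.2 ± 0.213), Jak2 (11.4 ± 0.0956), Stat2 (6.21 ± 0.567), Stat5a (5.86 ± 0.180), Cish (4.57 ± 0.141), Socs1 (0.269 ± 0.0805) and Socs2 (0.258 ± 0.0132). There the neighbours Stat6 and Socs3, Stat2 and Stat5a, and Socs1 and Socs2 overlapped. Socs3 thus moved from above Stat6 to overlap with it, and Stat2 from the level of Stat3 to that of Stat5a.

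The whole SOCS family, 8 genes with Cish, summed to 106 and 102 FPKM with vehicle and to 55.7 and 57.2 FPKM with Rb1. Socs3 alone made up 75.3% ± 2.27 of that sum with vehicle and 46.4% ± 3.01 with Rb1. Without Socs3 the family summed to 24.4 and 26.8 FPKM with vehicle and to 31.1 and 29.5 FPKM with Rb1, so on this scale the lower total lay in Socs3. Of the remaining 4 genes, better known from growth factor and insulin signalling, Socs4 rose from 29.3 ± 2.02 to 60.9 ± 6.27 CPM (edgeR adjusted p = 2.2e-06) and Socs7 from 33.0 ± 3.57 to 55.8 ± 0.212 CPM (adjusted p = 2.0e-05). Socs5 was also called higher (log2 fold change 0.30) and Socs6 was not called (-0.15). With the length trend removed Socs4 and Socs7 were called higher, Socs5 was no longer called higher, and 1 of the 4 was called lower. The 4 STAT members summed to 78.9 and 91.8 FPKM with vehicle and to 55.5 and 54.8 FPKM with Rb1. Stat6 made up 58.7% ± 0.573 of that sum with vehicle and 50.6% ± 1.32 with Rb1, and the share of Stat5a went from 3.30% ± 0.498 to 10.6% ± 0.235. Stat4 had 0 counts in all 4 libraries.

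**Figure D3:**
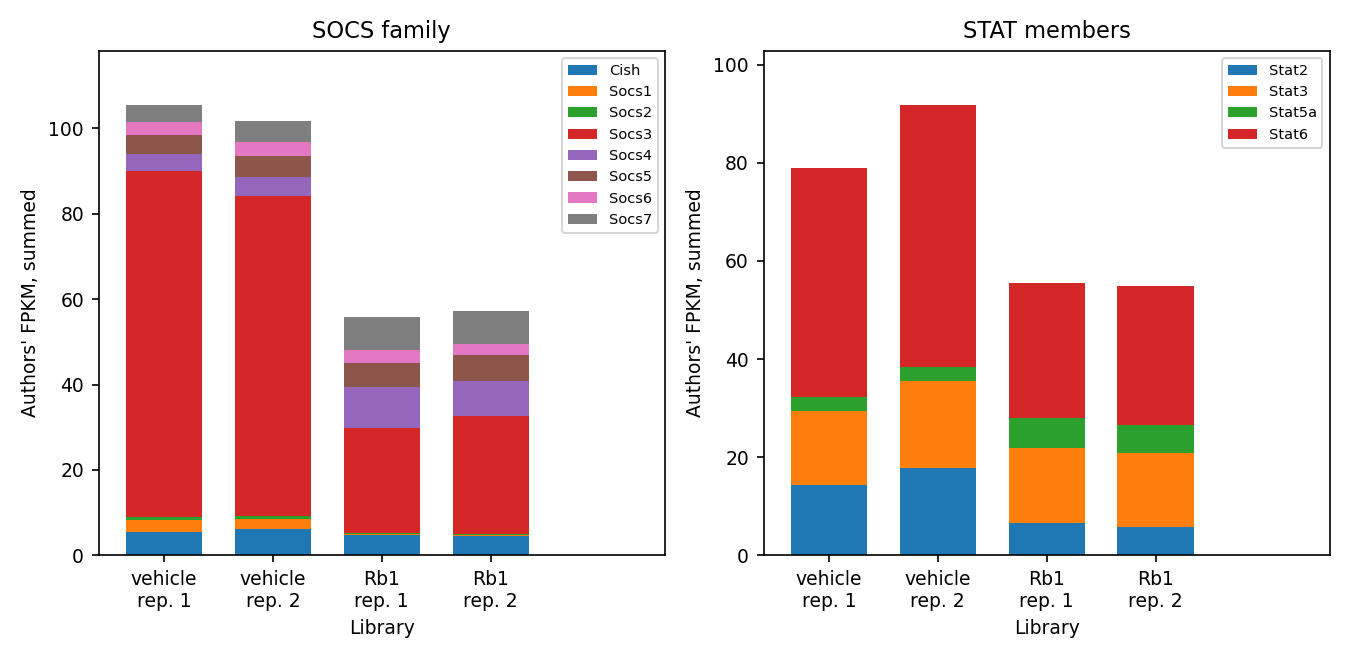
The authors' FPKM of the SOCS family (left, with Cish) and of the 4 STAT members (right), stacked by gene for each library. The red Socs3 block shrinks from 81.1 and 74.9 FPKM with vehicle to 24.7 and 27.7 FPKM with Rb1, and the Stat6 block from 46.6 and 53.5 to 27.5 and 28.2.

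Other genes of the pathway were described by lists, some of which share genes (Osm, Pim1, Bcl2l1, Il4ra and Usp18 stand in more than 1). Their counts stand beside the same background, 72% of all genes called, 35.7% higher and 36.3% lower, and a list's share of calls near that is not a result about the list. Of 23 cytokine ligands that signal through JAK-STAT, 12 were tested, 11 were lower and 1 was higher, with a median log2 fold change of -2.43 against -0.01 over all genes tested. Csf3, granulocyte colony-stimulating factor, fell 44.6-fold and Il6 16.5-fold (edgeR adjusted p = 1.0e-11 and 1.4e-10). The higher gene, Il4, was at 4 and 7 counts in vehicle libraries and 16 and 18 in Rb1 libraries. Its call was lost without any one of the 4 libraries, with DESeq2 and with no filter on low counts. Of 25 receptor genes 19 were tested, 13 lower, 3 higher and 3 not called (median -0.86, beside 36.3% of all genes lower and 35.7% higher). Beta chain genes of the GM-CSF, interleukin-3 and interleukin-5 receptor family fell. Csf2rb2 went from 38.1 ± 5.44 to 3.12 ± 0.181 CPM and Csf2rb from 123.6 ± 4.01 to 36.7 ± 0.362 CPM (edgeR adjusted p = 3.6e-09 and 6.6e-09). Both are close copies of one another, so their single values are uncertain. Csf3r, the receptor of the ligand Csf3, rose from 5.81 ± 1.37 to 12.2 ± 0.885 CPM (adjusted p = 2.0e-04). Il6ra rose from 22.5 ± 2.05 to 32.2 ± 1.499 CPM (adjusted p = 8.7e-04), a rise that was 0.022 on the log2 scale and not called with the length trend removed (adjusted p = 0.847).

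Of the 4 Janus kinase genes, Jak2 among them, 2 were higher, none was lower and 2 were not called (median 0.24), beside 72% of all genes called. Jak3, the kinase of the common gamma chain, rose from 16.9 ± 3.30 to 34.02 ± 1.71 CPM (edgeR adjusted p = 2.5e-05). With the length trend removed 1 of the 4 was called higher and 1 lower, with a median of -0.018. SOCS proteins act through a ubiquitin ligase of elongins, cullin 5 and Rnf7. Of these 4 partner genes Elob fell from 242 ± 25.6 to 85.4 ± 5.09 CPM and Rnf7 from 161 ± 19.2 to 69.6 ± 1.498 CPM (edgeR adjusted p = 4.2e-08 and 3.1e-07). Eloc was lower too, and Cul5 rose from 47.3 ± 0.676 to 80.6 ± 4.30 CPM (adjusted p = 5.7e-06). Removing the length trend took the log2 fold change of Elob from -1.505 to -1.001 and that of Rnf7 from -1.207 to -0.691. For Cul5 it went from 0.768 to 0.304. After that removal 3 of these 4 partner genes were still called lower and 1 higher.

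Of 11 other inhibitors, 7 were higher, 3 lower and 1 not called (median 0.26, and -0.04 with the length trend removed), beside 35.7% higher and 36.3% lower among all genes. Pias2, a SUMO ligase of the PIAS family, rose from 28.5 ± 1.43 to 67.2 ± 6.22 CPM (edgeR adjusted p = 4.1e-07), and the phosphatase gene Ptprc, which encodes CD45, from 110.3 ± 4.32 to 239 ± 2.59 CPM (adjusted p = 7.9e-08). With the length trend removed the log2 fold change of Ptprc went from 1.11 to 0.15 (adjusted p = 0.0254). The call on Ptprc was lost when replicate was added as a term to that fit (adjusted p = 0.0521). It was also lost with the trends on length and GC removed (log2 fold change 0.08, adjusted p = 0.230). Usp18, which shields the interferon receptor from its kinase and is itself interferon-induced, fell from 303 ± 8.51 to 37.5 ± 0.194 CPM (adjusted p = 7.8e-11). Ptpn2, a nuclear STAT phosphatase, was called lower by a small margin (log2 fold change -0.26, adjusted p = 0.0113). That call was lost in several alternatives, among them library totals (-0.02, adjusted p = 0.886), DESeq2 (-0.25, adjusted p = 0.0564) and removal of the length trend (-0.12, adjusted p = 0.138).

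**Figure D4:**
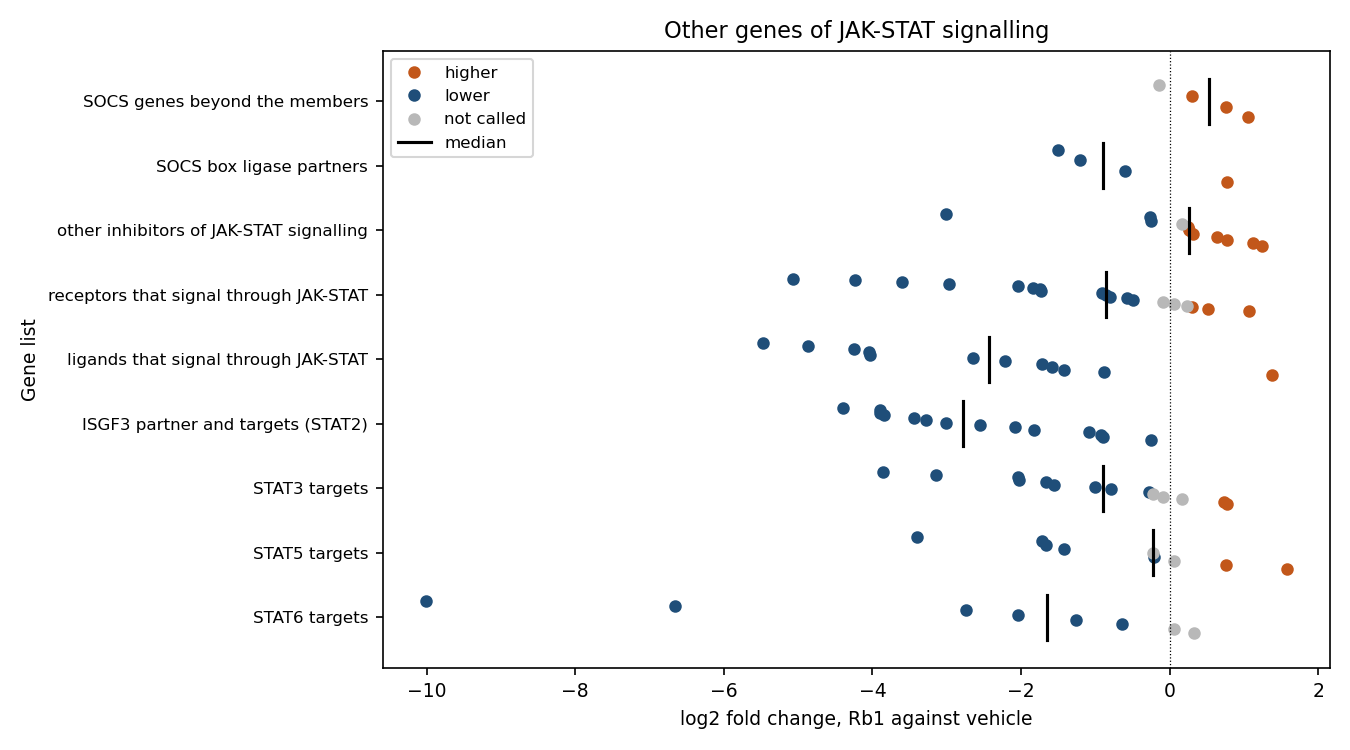
Log2 fold changes (horizontal axis, Rb1 against vehicle) of the tested genes in 9 pathway lists, with 1 point per gene coloured by call and a black bar at each list's median. Ligands (median -2.43) and ISGF3 targets (median -2.78) have the lowest medians, and further SOCS genes have a median of 0.53.

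Genes known as targets of each STAT were set beside the factor itself. All 14 genes of the ISGF3 list were lower (median -2.78), against 36.3% of all genes, beside the fall of Stat2. Ifit3 fell from 222 ± 9.21 to 10.5 ± 0.0853 CPM and Rsad2 from 714 ± 38.9 to 49.7 ± 0.763 CPM (edgeR adjusted p = 1.9e-11 and 3.7e-11). The smallest fall in the list was that of Oas2 (log2 fold change -0.25). With library totals 13 of the 14 were called lower. Of 14 STAT3 targets 9 were lower, 2 higher and 3 not called (median -0.90). Their share called in either direction was near the 72% of all genes, while 36.3% of all genes were lower and 35.7% higher. Lcn2, the iron-binding protein lipocalin 2, fell from 1781 ± 231 to 200.3 ± 6.10 CPM and Vegfa 2.94-fold, and Hif1a and Bcl3 rose 1.70-fold and 1.65-fold (edgeR adjusted p = 6.7e-10, 8.0e-09, 2.2e-06 and 3.0e-05).

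Of 10 STAT5 targets 9 were tested, 5 lower, 2 higher and 2 not called (median -0.22, 0.019 with library totals and -0.76 with the length trend removed), again near the 72% of all genes called. The cytokine gene Osm fell from 100.0 ± 0.570 to 30.4 ± 0.183 CPM and the survival gene Bcl2l1 from 81.2 ± 0.234 to 25.7 ± 0.687 CPM. The repressor gene Bcl6, which STAT5 is known to lower in lymphocytes, rose from 21.4 ± 1.47 to 63.7 ± 2.05 CPM, and Ccnd1, cyclin D1, from 74.3 ± 2.62 to 125.5 ± 1.65 CPM (edgeR adjusted p = 7.6e-09, 1.3e-08, 4.3e-08 and 3.1e-06). Of 14 STAT6 targets 8 were tested, 6 lower and 2 not called (median -1.65). Their share called in either direction was also near 72%, while 36.3% of all genes were lower and 35.7% higher. Arg1, arginase 1, went from 77.5 ± 6.55 to 0.761 ± 0.0546 CPM, and Il4ra, which encodes the receptor chain that recruits STAT6, from 125.4 ± 9.99 to 30.6 ± 3.69 CPM (edgeR adjusted p = 5.3e-11 and 1.3e-08). The alternative activation genes Retnla, Chil3, Ccl17, Ccl24, Mgl2 and Cd209a had at most 2 counts in any library.

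The genes with the pattern most like that of Stat5a over the 4 libraries were Trip13, Gclm and Brd8, with a root mean square difference in log2 CPM, centred on the vehicle mean, of 0.0076, 0.01001 and 0.0129. Closest to Socs1 were Hist1h3f, Angptl4 and Hist1h4n, at 0.0483, 0.0682 and 0.0760. Of these Angptl4 fell from 64.2 ± 6.61 to 7.12 ± 1.45 CPM, and both histone genes were at under 4 CPM in every library. Hist1h3f was at 0.050 and 0 CPM with Rb1. There a small constant, added to CPM before taking logs, sets its log2 value, so its likeness to Socs1 cannot be read.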

How the data were processed

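RNA from 4 DC2.4 libraries was sequenced paired-end on Illumina, per the labels' protocols. The authors deposited raw counts per gene and FPKM values per gene, without pooling replicates; no source used here gives the aligner, counter or annotation. GRCm39 and mm39 stand in the submitters' processing notes, but 98.3% of 54495 gene IDs shared with GENCODE M21 have its GRCm38 coordinates, so coordinates are given as GRCm38. The members and gene lists were chosen with earlier results of these data known.

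Counts were tested with edgeR 4.0.16 (TMM, filterByExpr, robust quasi-likelihood fit, group as the only term, two-sided, Benjamini-Hochberg over 13518 genes, threshold 0.05, 2 residual degrees of freedom). SE is the log2 fold change divided by the square root of F. Within-replicate differences use log2 CPM with a prior count of 2. The procedure was tested on simulated counts. Few genes changed in them and no length trend was set, so they cannot show how it behaves under a change as broad as this. Text names the members, up to 2 called genes per list and direction, and the 3 genes closest in pattern; a few further list genes were named after their values were seen, and some list genes are not reported here. Alternatives used limma 3.58.1 (also on FPKM), DESeq2 1.42.0, other scalings and filters, removal of trends on gene length (GC added after seeing the data), a replicate block and each library left out.

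Replicates differed by more than sampling noise (chi-square per degree of freedom 11.8 with vehicle, 2.87 with Rb1, over genes with at least 20 counts). The labels call them biological replicates without saying how cultures were kept apart, and p-values cover only the spread seen here, which may be technical. The batch given in the labels is the replicate number, which was taken to pair libraries; deviations of same-numbered libraries correlated at -0.05. A count of 0 allows up to 3 counts, and such floors cover counting error only.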

Additional observations from a re-analysis of the deposited data

How the results depend on the processing

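The calls on Stat2, Stat5a, Stat6, Socs1, Socs2 and Socs3 kept their direction and their side of the threshold in every alternative that gave them a value. Socs2 had no value in the 2 FPKM fits with a minimum mean of 0.5. With all 4 libraries kept, members called higher numbered 1, and 2 with library totals. Leaving out a library leaves 1 in its group, so the spread in those fits comes from the other group alone. Their counts of members called are not given, though the tallies that follow include them. The sign of Stat3 turned with library totals (0.12) and that of Jak2 once trends on length and GC were removed (-0.059); the cause was not tested. Under other alternatives Stat3 was called lower 4 times, Jak2 higher 2 times and Cish lost its call 4 times, 1 of them on log2(FPKM + 1) without a filter (adjusted p = 0.0856). With the replicate block 1 member was higher and 6 lower, and 4799 of all genes were higher and 4854 lower; the block changed no call on a member. Over all alternatives, genes called higher lay between 4182 and 6128 and genes called lower between 3662 and 5251. Among the genes named by rule other than the members, 606 alternative values kept their call and 17 lost it, in Il4, Il6ra, Ptpn2 and Ptprc; Socs5, Socs6 and Eloc are not in this tally. Depth limits Socs1 most, with 12 and 19 counts in the Rb1 libraries, and 2 libraries per group limit every error given.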
